A study of Xenopus laevis with 4 samples.

Results

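The mix and bix genes of Xenopus laevis are a small family of paired-like homeobox genes. By name, 8 of the 49078 features in the deposited table belonged to it: mixer.L, mixer.S and the L and S copies of bix1.1, bix1.2 and bix1.3. No feature was named mix1. The table lists mixl1.L and mixl1.S instead, a name that RefSeq (assembly Xenopus_laevis_v10.1) gives as a synonym of mix1.L and mix1.S, so these 2 copies were taken with the other 8 and the family is described below as 10 copies. RefSeq matched 9 of the 10 by symbol or synonym, and bix1.2.L had no entry. RefSeq synonyms place older names on several copies: bix3 on bix1.1.L, bix2 and milk on bix1.2.S, and bix1 and bix4 on both bix1.3 copies. They also include bix2.L for bix1.2.S and bix4.L for bix1.3.S. The L or S label of these copies, and which bix1.2 feature is milk, may therefore differ between gene sets.

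RNA was measured in 2 libraries of newly made RNA and 2 libraries of total RNA from whole embryos. The stage was the mid-blastula transition, when the embryo starts to transcribe its own genome at large scale, and lay about 9 hours after fertilization. For the EU-RNA libraries, embryos received 10 nl of 50 mM 5-ethynyl uridine (EU) at the 1-cell stage, and RNA that had taken up this uridine analogue was biotinylated by click chemistry and captured on streptavidin beads. For the Normal libraries, total RNA of embryos without the injection was used, which holds maternal and newly made RNA together per the labels. The groups therefore differed in capture and in injection, and no allele, strain or further agent is named for either. Library totals ran from 47598265 to 209445802 estimated counts. Since nothing in the labels tells whether replicates are separate clutches, p-values measure only the spread between libraries, which may be technical.

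Mix and bix proteins are transcription factors that help set up endoderm and mesoderm in the vegetal and marginal cells of the blastula. Their genes are switched on in the embryo by the maternal T-box factor VegT and by Nodal and activin signalling, which acts through receptor-activated Smads and the forkhead partner Foxh1. Mix.1, the founding member, was found in Xenopus as an early gene induced by activin, and its protein can pair with other paired-type homeodomain proteins. Mixer can turn naive Xenopus ectoderm towards endoderm, and both Mixer and Milk can bring activated Smads to target genes such as gsc. The bix genes were found as T-box targets in Xenopus.

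All 10 copies were higher in EU-RNA than in total RNA, by 3.34-fold (mixl1.S) to 7.15-fold (bix1.2.S), with edgeR quasi-likelihood adjusted p from 0.00358 to 0.0253. Of all 26543 features tested, 4.69% were higher by the same test and 0.889% were lower. All 10 copies passed the filter on low counts, each with at least 715 estimated counts in every library. The 8 copies found by name alone all passed the test as well. The median log2 fold change was 2.20 over the 10 copies and 0.0087 over all features tested, where the log2 fold change is EU-RNA over Normal after TMM scaling, which centres the average transcript near 0. By DESeq2 and by limma-voom all 10 copies were higher as well, against 11.3% and 4.25% of all features higher and 7.08% and 1.45% lower. No library of one group overlapped the other group for any copy. Non-overlap with EU-RNA above Normal was found for 26.4% of the features tested.

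Together the 10 copies held 0.488% of all counts in EU-RNA replicate 1 (95% Wilson interval 0.487% to 0.490%) and 0.600% in EU-RNA replicate 2 (0.598% to 0.601%). In the Normal libraries they held 0.0976% (0.0967% to 0.0985%) in replicate 1 and 0.0984% (0.0979% to 0.0988%) in replicate 2. These intervals cover counting error only. On the TMM-scaled CPM scale, which is counts scaled to a common library total and corrected for composition, the summed level was 4964 ± 433 CPM in EU-RNA and 1073 ± 39.0 CPM in Normal (SD, n = 2 each). Fitted as a single feature, the whole family was higher by 2.21 on the log2 scale (SE 0.24, adjusted p = 0.00718 by edgeR). The contrast sets captured RNA against total RNA, so a fold change here is not by itself a change of expression in the embryo. In libraries of whole embryos, a difference in the number of cells that express these genes and a difference in RNA per cell also cannot be told apart.

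**Figure D1:**
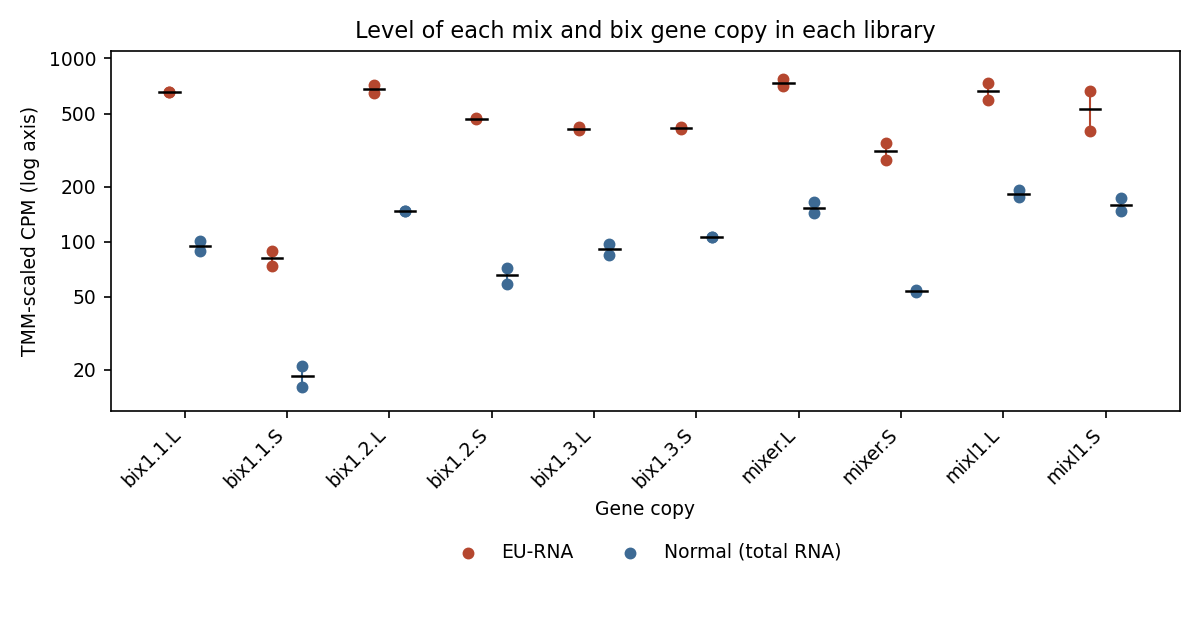
TMM-scaled CPM (log axis) of each of the 10 gene copies in each library, with EU-RNA to the left of Normal for each copy; points are libraries, a vertical line joins the 2 libraries of a group and a black bar is their mean. EU-RNA points lie above Normal points for every copy, and the widest gap between EU-RNA libraries is that of mixl1.S, at 402 and 661 CPM.

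In the fit with all libraries, the mix1 copies had the smallest differences of the family. mixl1.L was at 592 and 730 CPM in EU-RNA replicates 1 and 2, against 175 and 191 CPM in Normal replicates 1 and 2. Its log2 fold change was 1.85 (SE 0.21, adjusted p = 0.00767 by edgeR). The homeologous copy mixl1.S was at 402 and 661 CPM in EU-RNA, against 172 and 146 CPM in Normal. The EU-RNA libraries of mixl1.S lay further apart than those of any other copy, and its log2 fold change of 1.74 had the largest error in the family (SE 0.29, adjusted p = 0.0253 by edgeR). Leaving out EU-RNA replicate 2 gave 1.29 and leaving out EU-RNA replicate 1 gave 1.99 on that scale. Without EU-RNA replicate 1 the order changed, since mixl1.L was then at 1.94 and the smallest value was that of bix1.3.S, at 1.93.

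Both copies of mixer, the endoderm inducer, were higher. mixer.L was at 704 and 773 CPM in EU-RNA, against 143 and 164 CPM in Normal, or 2.27 on the log2 scale (SE 0.20, adjusted p = 0.00451 by edgeR). mixer.S was at 280 and 346 CPM in EU-RNA, against 53.5 and 54.8 CPM in Normal. Its log2 fold change was 2.53 (SE 0.21, adjusted p = 0.00408 by edgeR). In both copies the lowest EU-RNA library stood more than 4-fold above the highest Normal library, at 4.30-fold for mixer.L and 5.11-fold for mixer.S.

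The 6 bix1 copies, targets of T-box factors in Xenopus, included the largest differences of the family. bix1.1.L was at 657 and 658 CPM in EU-RNA, against 88.5 and 101 CPM in Normal. Its log2 fold change was 2.79 (SE 0.20, adjusted p = 0.00358 by edgeR), and its EU-RNA libraries differed by 0.00395 on the log2 scale, the smallest gap between EU-RNA libraries among the 10 copies. bix1.1.S, the least abundant copy by counts, was at 89.5 and 74.2 CPM in EU-RNA, against 16.1 and 21.1 CPM in Normal. Its log2 fold change was 2.14 (SE 0.26, adjusted p = 0.00955 by edgeR).

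For the bix1.2 pair, the S copy, which RefSeq also lists as milk, had the largest fold change of the family. bix1.2.S was at 466 and 473 CPM in EU-RNA, against 59.1 and 72.2 CPM in Normal. That is 2.84 on the log2 scale (SE 0.21, adjusted p = 0.00358 by edgeR). bix1.2.L was at 651 and 715 CPM in EU-RNA, against 148 and 147 CPM in Normal, or 2.21 on the log2 scale (SE 0.19, adjusted p = 0.00451 by edgeR). The Normal libraries of bix1.2.L were close together, and neither copy's groups overlapped.

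The bix1.3 copies, for which RefSeq gives the older name bix4, were both higher. bix1.3.L was at 406 and 421 CPM in EU-RNA, against 84.8 and 96.9 CPM in Normal, or 2.18 on the log2 scale (SE 0.19, adjusted p = 0.00451 by edgeR). bix1.3.S was at 411 and 420 CPM in EU-RNA, against 106 CPM in both Normal libraries, or 1.97 on the log2 scale (SE 0.18, adjusted p = 0.00478 by edgeR). The SE of bix1.3.S was the smallest in the family.

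Agreement between replicates was close for most copies. The size of the log2 ratio between the 2 EU-RNA libraries had a median of 0.13 over the 10 copies and of 0.45 over 12933 features whose average log2 CPM was 3 or more. Between the 2 Normal libraries it had a median of 0.19 over the 10 copies and of 0.24 over those features. The SE of the log2 fold change had a median of 0.20 over the 10 copies and of 0.86 over all features tested. None of these comparisons was matched for level. The family's average log2 CPM ran from 5.65 (bix1.1.S) to 8.80 (mixer.L), while the features set beside it include many of lower level. Closeness of replicates is therefore not shown to be particular to the family. Ranked by p, the copies stood between position 55 (bix1.1.L) and position 939 (mixl1.S). Ranked by log2 fold change among all features tested, whatever their SE, they stood between position 2554 (bix1.2.S) and position 4959 (mixl1.S). The log2 fold changes of all those features had an SD of 3.13 and ran up to 16.5. Of the 1246 features higher in EU-RNA, 63.7% had a smaller log2 fold change than bix1.2.S and 23.4% had a smaller one than mixl1.S.

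Reads that fit several of these copies may have been split wrongly between them, since Salmon divides shared reads by estimate, so values of single copies are uncertain in that respect. Counts summed over L and S give values that such splitting within a pair does not touch. The summed log2 fold changes were 2.68 (SE 0.19) for bix1.1, 2.41 (SE 0.19) for bix1.2, 2.31 (SE 0.20) for mixer, 2.05 (SE 0.18) for bix1.3 and 1.77 (SE 0.23) for mixl1. With copies summed in this way over the whole table, all 5 names passed (edgeR adjusted p from 0.00264 for bix1.1 to 0.0104 for mixl1), and 4.70% of the gene names tested were higher. Summed over all 6 bix1 copies the log2 fold change was 2.38 (SE 0.22, adjusted p = 0.00491 by edgeR).

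The balance of L and S copies was compared between EU-RNA and total RNA for each name, with edgeR's test of unequal change among copies of a gene, fitted over 4523 gene names. Of these, 1.06% passed an adjusted p of 0.05, and none of the 5 family names did. At an unadjusted p below 0.05 there was 1, bix1.2. Ratios of L to S counts are not corrected for length. For bix1.2 the L copy was 1.40 and 1.51 times the S copy in EU-RNA, against 2.50 and 2.03 times in Normal. The log2 fold change of L minus that of S was -0.62 (SE 0.28, adjusted p = 0.296 by edgeR). The shift ran the other way for bix1.1, where L was 7.33 and 8.88 times S in EU-RNA and 5.50 and 4.80 times S in Normal. That difference was 0.66 (SE 0.33, adjusted p = 0.320 by edgeR). Neither difference passed, and they were not tested against each other.

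The other names had smaller differences. L minus S was -0.26 (SE 0.29) for mixer, 0.21 (SE 0.26) for bix1.3 and 0.11 (SE 0.35) for mixl1 on the log2 scale, with edgeR adjusted p of 0.721, 0.784 and 0.927. The ratio of mixl1.L to mixl1.S was 1.47 and 1.10 in EU-RNA and 1.02 and 1.31 in Normal, so its groups overlapped. Those of the other 4 names did not overlap, as was the case for 51.2% of the 4523 gene names. Over all names the size of the difference had a median of 0.79. With such errors the test does not show that L and S copies acted alike.

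**Figure D2:**
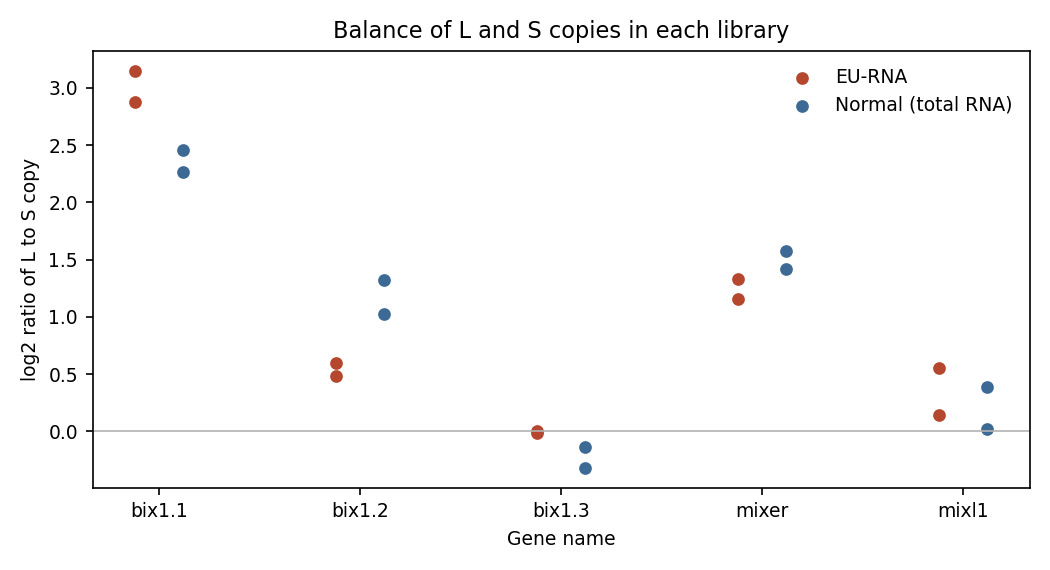
Log2 ratio of the L copy to the S copy in each library for the 5 gene names, with EU-RNA points left of Normal points. EU-RNA points lie above Normal points for bix1.1 and bix1.3 and below them for bix1.2 and mixer, while those of mixl1 overlap; no difference passed the test (edgeR adjusted p from 0.296 to 0.927).

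As shares of the family total, the copies differed as follows. mixl1.L made up 13.3% ± 0.797 of family counts in EU-RNA and 17.1% ± 0.473 in Normal (SD, n = 2 each). mixl1.S made up 10.6% ± 2.76 in EU-RNA and 14.9% ± 2.24 in Normal. bix1.1.L made up 13.3% ± 1.14 in EU-RNA and 8.84% ± 0.524 in Normal, and bix1.2.S 9.48% ± 0.732 and 6.10% ± 0.643. In a test chosen after these values were seen, each copy's log2 fold change was set against the rest of the family, with all 10 copies as 1 group in edgeR. None of the 10 passed (smallest adjusted p = 0.875 for bix1.2.S, at 0.44 above the family on the natural log scale). On the log2 scale bix1.2.S was at 2.84 and the summed family at 2.21. At an unadjusted p below 0.05 there was 1, bix1.2.S, and the share of all copies at that cut is not given here. For mixl1.L and mixl1.S the unadjusted p of that edgeR test was 0.229 and 0.115. Of all copies in that fit, 0.166% passed.

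In RefSeq's gene order, the family lies in a tandem cluster on the L chromosome (bix1.3.L, bix1.1.L, mix1.L, mixer.L) and on its S homeolog (mixer.S, mix1.S, bix1.1.S, bix1.2.S, bix1.3.S), with no other gene listed in between. Genes listed only under a LOC number were passed over, so unnamed genes may lie nearer to the cluster. After the family's values had been seen, the nearest 3 named protein-coding genes on each side were taken as flanking genes. Of 12 such genes 10 were tested, of which 1 was higher, none was lower and 9 did not pass by edgeR. By the same test 4.69% of all features were higher and 0.889% lower. With 10 genes, these counts cannot be told from those shares. Among the flanking genes, DESeq2 called 1 higher and 1 lower (coq8a.S), and limma-voom 1 and 0. Over all features, DESeq2 called 11.3% higher and 7.08% lower, and limma-voom 4.25% and 1.45%. Beside the L cluster, acbd3.L, which encodes a Golgi protein, was at 120 and 126 CPM in EU-RNA, against 92.4 and 101 CPM in Normal (log2 fold change 0.35, SE 0.18, adjusted p = 0.321 by edgeR). On its other side, lin9.L, a subunit gene of the MuvB cell cycle complex, was at 61.8 and 78.8 CPM in EU-RNA, against 94.2 and 92.3 CPM in Normal (log2 fold change -0.41, SE 0.21, adjusted p = 0.318 by edgeR). Neither difference passed.

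Beside the S cluster, lin9.S and acbd3.S had log2 fold changes of 0.0043 (SE 0.23) and -0.12 (SE 0.19). The flanking gene that passed was lefty.L, a Nodal inhibitor gene beyond acbd3.L and sde2.L. lefty.L was at 200 and 161 CPM in EU-RNA, against 20.2 and 16.9 CPM in Normal, or 3.28 on the log2 scale (SE 0.23, adjusted p = 0.00358 by edgeR). The lowest value among the flanking genes was that of coq8a.S (-1.31, SE 0.33, adjusted p = 0.0844 by edgeR). At an unadjusted p below 0.05 both coq8a.S and sde2.L (-0.90, SE 0.27, adjusted p = 0.126 by edgeR) lay below 0. The share of all features at that cut is not given here. parp1.L, coq8a.L and sde2.S, with log2 fold changes of 0.17, -0.35 and -0.34, did not pass either.

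**Figure D3:**
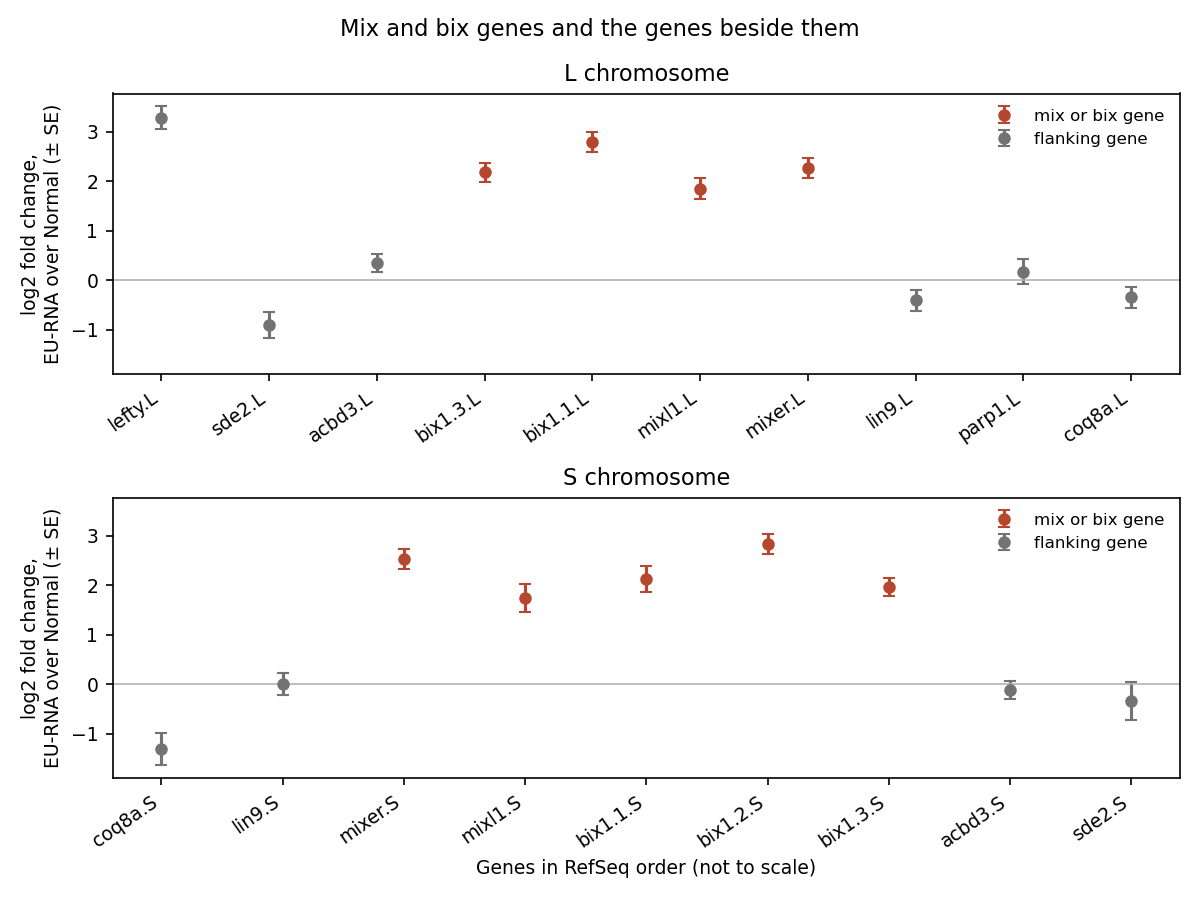
Log2 fold change (EU-RNA over Normal, error bars ± SE) of the mix and bix genes and their flanking genes in RefSeq order, not to scale, for the L chromosome (top) and the S chromosome (bottom); bix1.2.L has no RefSeq entry and is not shown. Family copies lie between 1.74 and 2.84, and flanking genes other than lefty.L lie between -1.31 and 0.35.

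Genes known to act upstream of the family were higher in part. The list of VegT, Nodal and Smad pathway genes held 35 tested features. By edgeR 15 were higher, none was lower and 20 did not pass, with a median log2 fold change of 1.38. Of all features tested, 4.69% were higher and 0.889% lower by that test. A count of none lower in a list of this size is near that share. The T-box gene eomes was higher in both copies, at 622 ± 17.0 CPM in EU-RNA, against 87.2 ± 5.37 CPM in Normal for eomes.L (log2 fold change 2.84, SE 0.19) and 2.11 (SE 0.19) on the log2 scale for eomes.S. tdgf1.3.L, which encodes a Nodal co-receptor (2.74, SE 0.23), and gdf3.S, a TGF-beta ligand gene (2.54, SE 0.22), followed (edgeR adjusted p from 0.00358 to 0.00451 for these 4). Both vegt copies passed, vegt.L at 1.81 (SE 0.23) and vegt.S at 1.72 (SE 0.22). Of 9 tested nodal ligand features 7 were higher, with nodal5.L at 4.94 (SE 0.75) the highest. The foxh1 features, which encode the Nodal partner, did not pass, at 1.01 (SE 0.21, adjusted p = 0.0511 by edgeR) for foxh1.2.L, -0.16 (SE 0.24) for foxh1.L and 0.40 (SE 0.68) for foxh1.S. smad2.L and smad2.S had log2 fold changes of -0.30 (SE 0.22) and 0.35 (SE 0.26). Members below 0 at an unadjusted p under 0.05 numbered 2, both of the receptor gene acvr2b. They were acvr2b.S (-0.87, SE 0.24, adjusted p = 0.104 by edgeR) and acvr2b.L (-1.50, SE 0.53, adjusted p = 0.162 by edgeR). The share of all features at that cut is not given here. Of 6 tested features of acvr receptor genes, 1 was higher, acvr1b.L (1.71, SE 0.28, adjusted p = 0.0237 by edgeR), and 5 did not pass. DESeq2 called 1 member of the list lower and limma-voom 0, against 7.08% and 1.45% of all features.

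Among endoderm and dorsal mesendoderm features that act with or downstream of the family, 25 were tested. Of these, 10 were higher, none was lower and 15 did not pass, with a median log2 fold change of 1.54. Over all features, 4.69% were higher and 0.889% lower. Both copies of the forkhead gene foxa4 rose (2.69, SE 0.20 for foxa4.S and 3.25, SE 0.25 for foxa4.L). The endoderm factor genes sox17b.2.L (2.62, SE 0.20) and sox17b.1.S (2.38, SE 0.20) followed, and edgeR adjusted p ran from 0.00358 to 0.00441 for these 4. Among the features of gata4, gata5 and gata6 the smallest p was that of gata6.S, which did not pass, at 1.60 (SE 0.36, adjusted p = 0.0650 by edgeR). Of the 15 that did not pass, 1 lay below 0 at an unadjusted p under 0.05, a cut whose share of all features is not given here. Neither DESeq2 nor limma-voom called any lower, against 7.08% and 1.45% of all features. Without a filter on low counts 16 features of this list were higher, as were 7.09% of all features.

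Of 26 tested features of other paired-like homeobox genes, among them gsc and otx2 of the endoderm list, 4 were higher, none was lower and 22 did not pass, with a median log2 fold change of 1.88. Of all features tested, 4.69% were higher and 0.889% lower by the same edgeR test. The 4 higher features were crx.S (2.13, SE 0.22), rax.L (3.61, SE 0.43), gsc.S (3.39, SE 0.43) and crx.L (1.98, SE 0.33). crx and rax are known from the eye, and gsc from the organizer. The number of higher features depended on the processing. It was 11 by DESeq2, where 11.3% of all features were higher, and 8 with scaling by library size only, where 6.65% were. None was below 0 at an unadjusted p under 0.05. DESeq2 called 1 lower and limma-voom 0, against 7.08% and 1.45% of all features.

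Some genes of other cells and of stress were also higher in EU-RNA. Of 35 tested features of animal and ectodermal genes, 18 were higher, none was lower and 17 did not pass. Their median log2 fold change was 1.25. By comparison, 4.69% of all features were higher and 0.889% lower. The epidermal regulator grhl3.S (3.72, SE 0.27), the forkhead genes foxi1.L (4.68, SE 0.34) and foxi4.2.S (2.21, SE 0.19), and the homeobox gene lhx5.S (2.71, SE 0.20) had the smallest p. Summed over that list, the level was 6710 and 6333 CPM in EU-RNA replicates 1 and 2, against 2464 and 2317 CPM in Normal replicates 1 and 2, and 1 of its features was at 0 in all libraries. Members below 0 at an unadjusted p under 0.05 numbered 2, and the share of all features at that cut is not given here. DESeq2 called 2 lower and limma-voom 0, against 7.08% and 1.45% of all features.

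Of 39 tested immediate early, p53 target and heat shock features, 18 were higher, none was lower and 21 did not pass. Their median log2 fold change was 2.28. Shares over all features were 4.69% higher and 0.889% lower. The smallest p belonged to the phosphatase gene dusp1.S (4.37, SE 0.22) and to the p53 targets ccng1.L (3.52, SE 0.22), cdkn1a.L (3.62, SE 0.26) and gadd45a.L (3.22, SE 0.23). Summed over that list, the level was 3765 and 3488 CPM in EU-RNA, against 963 and 965 CPM in Normal, and 1 feature was at 0 in all libraries. Only embryos of the EU-RNA libraries were injected. The part of the injection in the values of the mix and bix genes was not tested. No member was below 0 at an unadjusted p under 0.05. Neither DESeq2 nor limma-voom called any lower, against 7.08% and 1.45% of all features.

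**Figure D4:**
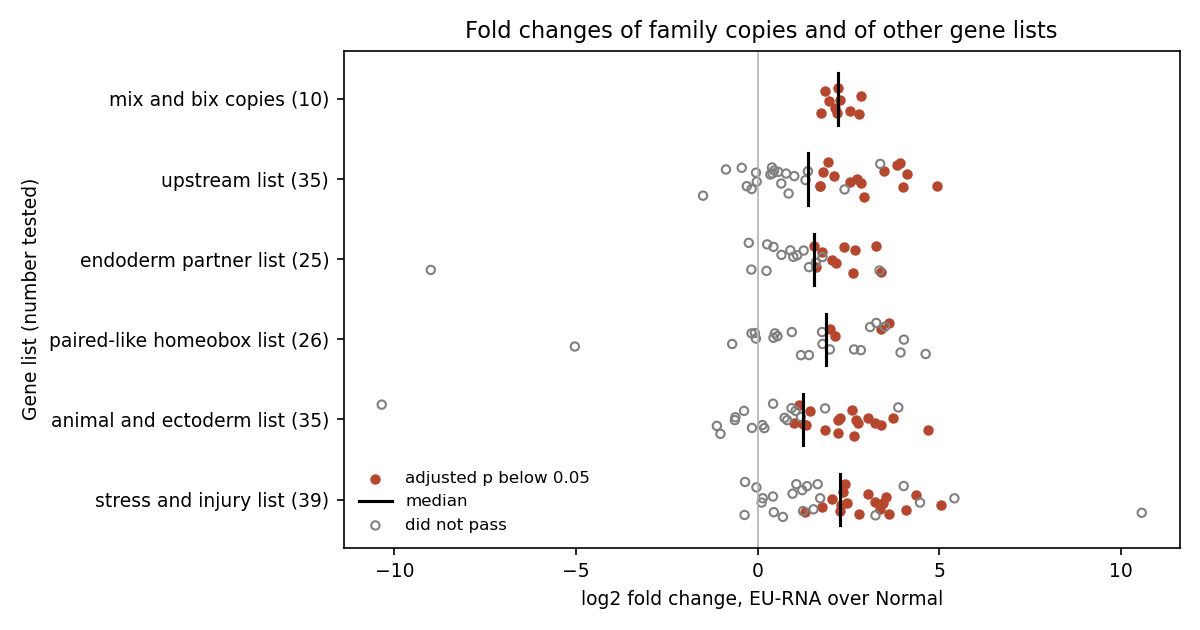
Log2 fold change (EU-RNA over Normal) of each tested feature of the family and of 5 other gene lists; filled points passed an edgeR adjusted p of 0.05, open points did not, and black bars are medians. The family spans 1.74 to 2.84 with all 10 points filled, while each other list holds open points and spans a wider range. Those lists are larger, at 25 to 39 tested features, and some include features of very low count. Among these are foxa2.L (-9.00) and krt12.S (-10.3), at 0 in both EU-RNA libraries, and fosl2.L (10.6), at 0 in both Normal libraries.

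The features most like the family in their levels were sought over all 4 libraries, by Euclidean distance between centred log2(CPM + 1) profiles and the mean profile of the 10 copies. The nearest was axin2.L, a Wnt feedback gene, at a distance of 0.0730, with 238 and 279 CPM in EU-RNA and 52.6 and 58.5 CPM in Normal. It was followed by the endoderm factor gene sox17a.L (0.112), the forkhead gene foxi4.2.L (0.123), the sialyltransferase gene st3gal1.S (0.124) and the ciliary gene invs.S (0.124). The 10 copies themselves lay at distances of 0.0615 (mixer.L) to 0.718 (mixl1.S) from their own mean. sox17a.L was at 144 and 151 CPM in EU-RNA, against 31.8 and 33.8 CPM in Normal. The call of st3gal1.S (log2 fold change 2.58, edgeR adjusted p = 0.0395) was lost without Normal replicate 1 (edgeR adjusted p = 0.154) and without Normal replicate 2 (edgeR adjusted p = 0.115). Its log2 fold change was 2.58 in both of those fits, while its SE was 0.49 in the full fit and 0.99 in each of them.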

How the data were processed

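Estimated counts per gene were deposited by the authors as whole numbers, 1 column per library. The submitters' processing notes name bcl2fastq and Salmon 0.12.0. Transcript set, genome build, length scaling, rounding and strand are not given in the sources used here. Counts were tested with edgeR 4.0.16 (R 4.3.3): TMM factors, filterByExpr, quasi-likelihood F-test with group as the only term, Benjamini-Hochberg adjustment over 26543 features, threshold 0.05. SE was log2 fold change over the root of F, in absolute terms, and the SE of a difference between copies combines both. For a feature at 0, a level of up to 3 expected counts (0.0143 to 0.0630 CPM, by library total) was taken as not told apart from 0. Copies were compared with diffSpliceDGE. Alternatives were DESeq2 1.42.0, limma-voom (limma 3.58.1), other scalings and filters, thinning, left-out libraries, summed copies and a replicate block. The fit was tested on simulated data. Members and lists were chosen with earlier results of these data known. Named are all family copies, the 4 features per list of smallest p and the 5 nearest profiles. The features of smad2, foxh1, vegt and acvr2b, acvr1b.L, nodal5.L, gata6.S and the flanking genes were chosen after their values were seen.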

Additional observations from a re-analysis of the deposited data

How the results depend on the processing

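All 10 family copies stayed higher, with an adjusted p below 0.05, under every alternative run: DESeq2, limma-voom, 2 other scalings, 2 other filters, thinning, each library left out, the replicate block and summed copies. The share of all features higher ran from 3.77% to 14.9% over these fits. Their log2 fold changes ranged from 1.29 (mixl1.S without EU-RNA replicate 2) to 3.10 (bix1.2.S with scaling by library size only). That scaling moved the median of all features by about 0.27, to 0.28. Over the whole table, higher calls numbered 2990 by DESeq2, 2488 without a filter and 1197 to 4577 with 1 library left out, against 1246. Lower calls numbered 1879 by DESeq2, 385 by limma-voom, 142 by library size only, 1134 without a filter, 680 with the replicate block and 151 to 5218 with 1 library left out, against 236. With an EU-RNA library left out, the lone EU-RNA library is assumed to vary like the Normal libraries. The paired-like homeobox list had 11 higher by DESeq2 and without a filter, 8 by library size only, 9 with the replicate block and 8 to 13 with 1 library left out, against 4. The endoderm list had 16 higher without a filter, against 10. Lower calls, 0 in each list, became 1 by DESeq2 and 1 without a filter (upstream), 1 by DESeq2 (paired-like), and 2 by DESeq2, 1 without a filter and 1 with the replicate block (animal). With 1 library left out they were 0 to 3 (upstream), 0 to 2 (paired-like), 0 to 4 (animal) and 0 to 1 (stress). The difference between mixl1.L and mixl1.S ranged from -0.073 to 0.36 with 1 library left out, turning negative without EU-RNA replicate 1 (-0.054) and without Normal replicate 1 (-0.073). The causes were not tested. Replicate numbers pair nothing in the labels, and deviations of same-numbered libraries correlated at -0.014 over 12933 features. The block gave 1789 higher calls and changed no call of a family copy. The lowest count of a family copy was 715 (bix1.1.S in Normal replicate 1), and all 10 copies stayed higher after thinning to the smallest total. The part of depth in the SE of single copies was not tested.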
